A study of Homo sapiens with 6 samples.

Results

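The baseline transcriptome of control 22Rv1 cells was described from the 3 siCtrl libraries among the 6 RNA-seq libraries of the series. The libraries were chosen by their labels alone (siCtrl replicates 1, 2 and 3), and all 62703 genes of the deposited count table were read in them. The other 3 libraries were from siMED12 cells and enter no value given here. 22Rv1 is an established human prostate cancer cell line grown from a xenograft that relapsed after castration. The study depleted MED12, a subunit of the Mediator complex, and siCtrl was its control. The labels name no engineered change in the siCtrl cells: 25 pmol of a non-targeting pool of small interfering RNAs was delivered 24 h after seeding and the medium was renewed after 6 h. On day 3 of silencing RNA was extracted, and poly(A) RNA was made into strand-specific libraries. All 3 libraries therefore share the transfection reagent and a non-targeting RNA, so the levels below are those of mock-silenced and not of untouched cells. The labels do not say whether the libraries came from separate cultures. The paper states that its experiments had at least 3 biological replicates unless noted. It also shows a batch-corrected heatmap of its full-transcriptome data on 22Rv1 cells. The labels name no batch and no batch correction was made here, so the spread between the libraries may be partly technical.

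The prostate epithelium is built of secretory luminal cells over a layer of basal cells, with rare neuroendocrine cells between them. Luminal cells depend on androgens, use the pioneer factor FOXA1 and the homeobox factor HOXB13, and make secreted proteases of the kallikrein family. Basal cells are marked by the factor TP63 and by the keratins KRT5 and KRT14, and neuroendocrine cells by vesicle proteins such as chromogranin A and synaptophysin. Prostate cancers are mostly luminal, and loss of luminal genes or gain of neuroendocrine genes is a known route by which they escape hormone therapy.

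The libraries held 16527216, 16512652 and 16774849 counts assigned to genes, and 26733, 25802 and 27366 genes had at least 1 count. A count of 0 allows a level of up to 3 counts, which is between 0.176 and 0.184 CPM in these libraries, and this limit covers counting error only. CPM are counts scaled to library size, here with edgeR's trimmed mean of M-values (TMM), and were used to compare libraries. Levels of different genes were compared only per length, as TPM, in which counts are divided by the summed exon length of the gene and then scaled to a common total. Mitochondrially encoded genes were part of the TPM total and took 13.7%, 18.1% and 26.2% of it in replicates 1, 2 and 3, so the TPM of a nuclear gene tended to be lowest in replicate 3. A gene was called on at 1 TPM or more in all 3 libraries, off under 0.1 TPM in all 3, and low otherwise. Few counts can divide off from low, since 3 counts came to at most 0.177 TPM for FOS and 1.22 TPM for TMSB10. The calls of weakly read genes therefore depend on gene length as well. Variability was read on the 10567 genes with a mean of at least 10 CPM, called assessed below, as the range of log2 CPM from the lowest to the highest library. Of these 386 (3.65%) were variable, differing at least 2-fold, and 2086 (19.7%) were stable, with a range under 0.15. With a single group of 3 libraries no test was possible, and all counts and levels are descriptions.

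By the counts assigned to protein-coding genes, the most abundant nuclear messenger RNA was that of TMSB10, thymosin beta 10, a small protein that binds actin monomers. TMSB10 (chr2:84905656-84906671, plus strand, GRCh38) had 11740.2, 9773 and 10829.8 TPM in replicates 1, 2 and 3, a mean of 10781 TPM ± 985 (SD, n = 3). The next was GAPDH of glycolysis, at 3761 TPM ± 638, whose highest library (4218 TPM) stood below the lowest of TMSB10. It was followed by ATP5F1B, the catalytic beta subunit of mitochondrial ATP synthase, at 2646 TPM ± 336, and by CCND1, the cyclin D1 that carries cells through G1, at 2275 TPM ± 439. CCND1 had 2572, 2483 and 1771 TPM, and its range overlapped that of ATP5F1B (2831, 2848 and 2258 TPM). Within each library ATP5F1B was the higher of the pair. The rest of the leading 20 were mostly parts of the translation and folding machinery and of the cytoskeleton: EEF2, RPL41, RPL8 and RPLP2 of the ribosome cycle, CALR and HSP90AB1 among chaperones, and ACTB, ACTG1, TUBA1B and TUBB4B of actin and tubulin. Their means lay between 965 TPM (RPLP2) and 1959.6 TPM (EEF2).

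**Figure D1:**
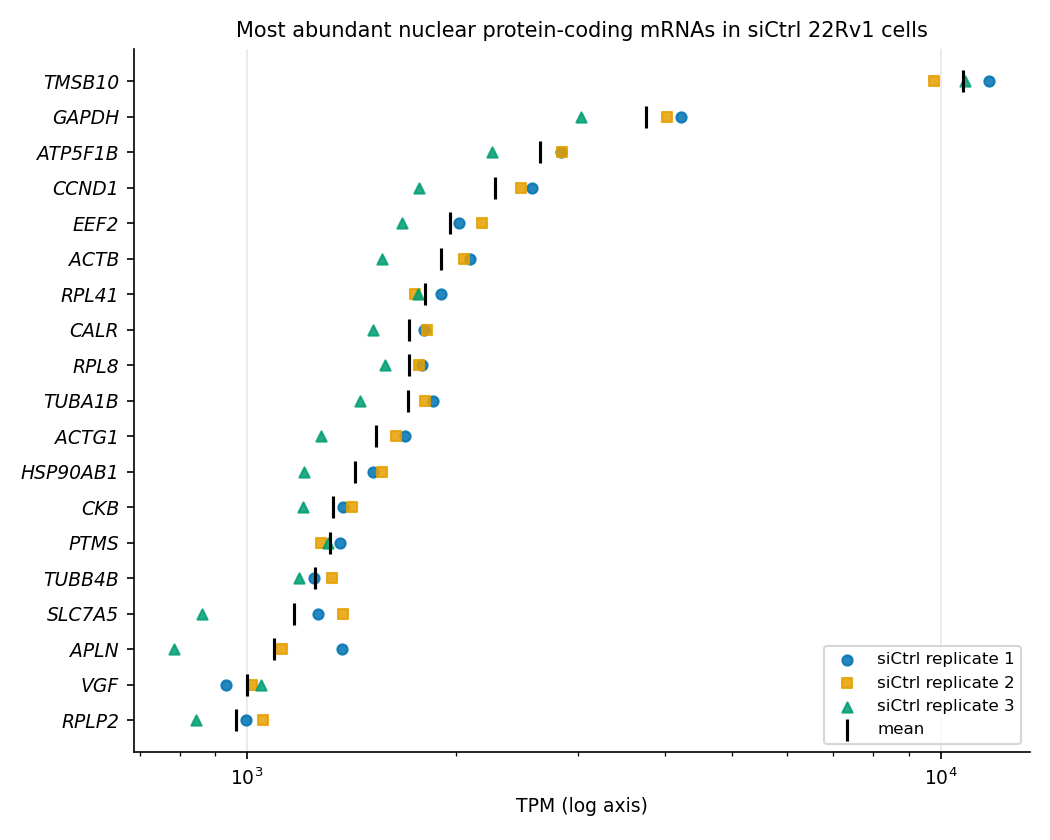
TPM (log axis) of 19 of the 20 nuclear protein-coding genes with the highest mean TPM in siCtrl 22Rv1 cells. Points are the 3 libraries and the vertical tick is their mean. TMSB10 stands apart at 10781 TPM, the other genes follow between 965 and 3761 TPM, and replicate 3 is the lowest library for most of them.

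Some of the leading 20 were not housekeeping genes. SLC7A5, the light chain of a transporter of large neutral amino acids, had 1268, 1374 and 862 TPM. APLN, which encodes the secreted peptide apelin, had 1370.3, 1124 and 786 TPM, and VGF, which encodes a secreted precursor of neuropeptides, had 932, 1018 and 1048 TPM. CKB, the brain-type creatine kinase, was at 1332 TPM ± 112. The exact place in the order depends on the length used. With the canonical transcript in place of all exons TMSB10 and GAPDH held ranks 1 and 2, but SLC7A5, APLN and VGF stood at ranks 69, 80 and 82 among nuclear protein-coding genes instead of 17, 18 and 19. This alternative was added after the values had been seen.

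The 150 bases before the RefSeq start of TMSB10 (GRCh38.p14, chr2:84905506-84905655, plus strand) are shown because they precede the messenger RNA that ranked first as counted. The exact letters TATAAA do not occur between 45 and 16 bases before this start. That stretch does hold the letters TATATAA, which the search did not count and which are not marked.
TMSB10: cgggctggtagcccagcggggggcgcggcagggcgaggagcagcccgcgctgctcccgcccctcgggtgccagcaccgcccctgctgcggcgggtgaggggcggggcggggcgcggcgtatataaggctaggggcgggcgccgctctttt

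Several non-coding entries stood as high as these genes, and most were processed pseudogenes, which are reverse-transcribed copies of messenger RNAs. RPL41P1, with an exon of only 81 bases, was at 25802 TPM ± 1351, and EEF1A1P5 was at 9823 TPM ± 719 where its parent EEF1A1, the elongation factor that carries transfer RNA to the ribosome, was at 384 TPM ± 23.7. PPIAP22 likewise had 6447 TPM ± 499 against 274 TPM ± 17.3 for PPIA, the proline isomerase cyclophilin A. Pseudogenes took 4.39%, 4.54% and 4.59% of the counts but, being short, 24.1%, 23.5% and 21.8% of the TPM. How reads that match several places were counted was not stated, so the split between a gene and a near-identical copy is uncertain and the levels of EEF1A1, PPIA and RPL41 may be too low here. EEF1A1P5 passed TMSB10 in replicate 2 only (10304 against 9773 TPM). The first place of TMSB10 among messenger RNAs therefore also rests on that split. Among 1403 named pseudogenes of ribosomal protein genes, 181 were on, beside 1415 of all 15221 pseudogenes.

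A small share of the genes supplied much of the messenger RNA. Of 20013 nuclear protein-coding genes, 11943 (59.7%) were on, 3507 were low and 4563 (22.8%) were off, of which 3631 had 0 counts in every library. The median level of the genes on was 19.5 TPM, 8215 reached 10 TPM, 1084 reached 100 TPM and 18 reached 1000 TPM. The 10 most abundant protein-coding genes held 5.63% ± 0.0890 (SD, n = 3) of nuclear protein-coding TPM, the first 100 held 17.2% ± 0.246 and the first 1000 held 49.1% ± 0.560. Over nuclear genes of any type, pseudogenes included, the first 100 held 28.5% ± 1.04. Of 18843 lncRNA genes 2470 (13.1%) were on and 10948 (58.1%) off. Genes that share nearly all their exonic bases with a neighbour were mostly listed as off: 77.4% of the 633 protein-coding genes that share over 90% of their exonic bases were off and 4.74% were on, against 27.6% off and 54.5% on among the 10499 that share none. The relation was not a steady one, since only 11.4% of the genes that share between 10% and 25% were off. Shared bases were counted without regard to strand, so they include overlap with genes on the opposite strand. Whether shared bases set the value of a gene was not tested. PRC1, a mitotic spindle protein, shares 61.9% of its bases and read 1.05 TPM, and NUSAP1, another spindle protein, shares 86.8% and read 0.267 TPM.

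The luminal program was on. Of 36 luminal prostate genes 30 were on and 2 off, against the 59.7% on and 22.8% off of all nuclear protein-coding genes, and their median was 86.8 TPM. Transcription factors of luminal cells were among them. HOXB13 had 247 TPM ± 58.3, FOXA1 237 TPM ± 95.8, GATA2 138 TPM ± 18.1 and SPDEF, an ETS factor of secretory epithelium, 245 TPM ± 31.9. FOXA1 was the least even of them, with 455, 369 and 236 CPM, highest in replicate 1 and lowest in replicate 3. The keratins of luminal cells, KRT8 and KRT18, stood at 338 TPM ± 13.9 and 485 TPM ± 26.0, and the adhesion proteins CDH1 and EPCAM at 205 TPM ± 20.9 and 98.2 TPM ± 8.48.

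The secreted and surface products of luminal cells spanned a wide range of levels. KLK4, a kallikrein protease, had the highest mean of the list, 541 TPM ± 81.7, although its lowest library (478 TPM) lay under the highest of KRT18 (515 TPM). By contrast KLK2 and KLK3 (prostate-specific antigen) stood at 34.5 TPM ± 6.25 and 22.6 TPM ± 4.85. KLK3 had 26.1, 17.1 and 24.8 TPM and KLK4 634, 512 and 478 TPM, so the libraries of the pair did not overlap. Among surface antigens STEAP1 was at 275 TPM ± 28.3, STEAP2 at 137 TPM ± 14.3 and FOLH1, prostate-specific membrane antigen, at 112 TPM ± 6.37. TMPRSS2, an androgen-regulated serine protease, was at 30.5 TPM ± 9.66. Other luminal products were scarce: ACP3, prostatic acid phosphatase, was at 5.85 TPM ± 0.207, MSMB, a major protein of seminal plasma, had 9, 1 and 34 counts, and the cold channel TRPM8 had 0 counts in every library. None of the 26 assessed luminal genes was variable, beside 3.65% of all assessed genes. Their median range on the log2 scale was 0.38, wider than the 0.29 of all assessed genes. The nearest to the 2-fold limit was AZGP1, a secreted zinc-binding glycoprotein, with 63.1, 59.9 and 119 CPM.

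**Figure D2:**
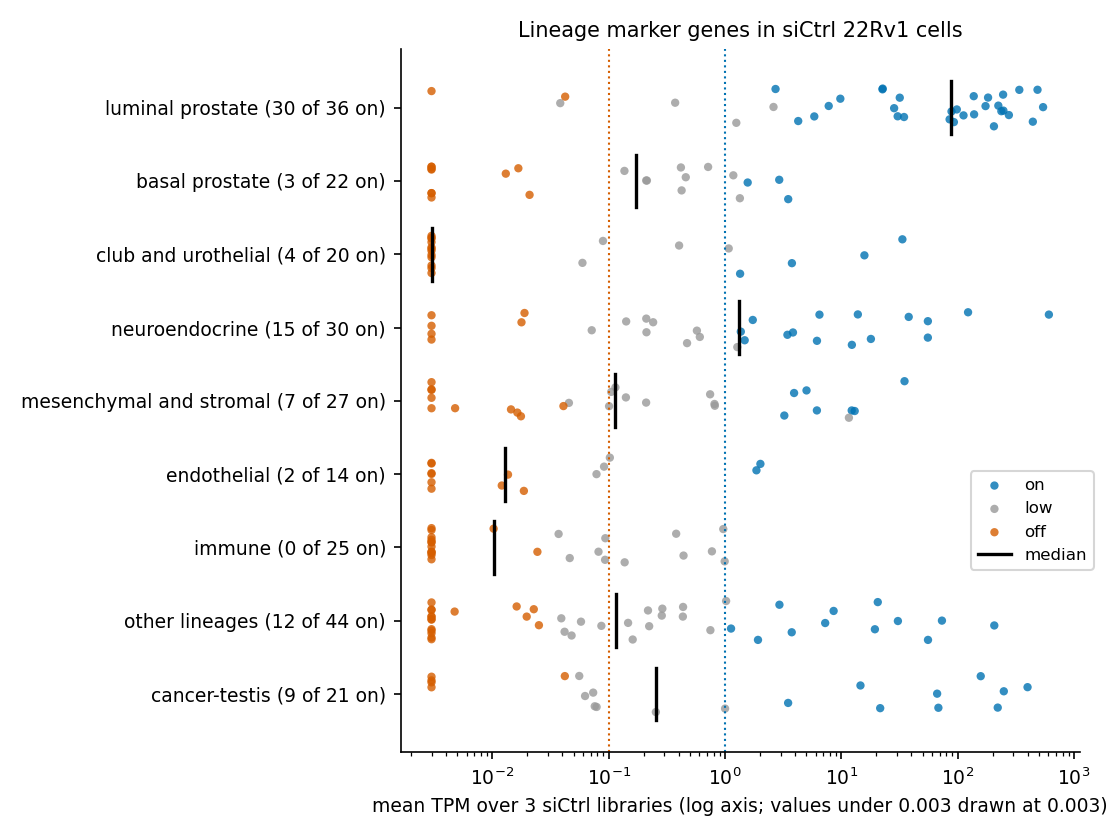
Mean TPM over the 3 siCtrl libraries (log axis) of each gene in 9 lists of lineage markers, drawn by its call, with the median of each list as a bar and dotted lines at 0.1 and 1 TPM. The luminal list has 30 of 36 genes on and a median of 86.8 TPM, and the immune list has 0 of 25 on. The neuroendocrine and cancer-testis lists each hold a few genes over 100 TPM above a low median. In the other-lineage list ALB alone lies over 100 TPM.

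Few basal, vascular or blood genes were on, whereas 59.7% of all nuclear protein-coding genes were on and 22.8% off. Of 22 basal prostate genes 3 were on, 9 low and 10 off. KRT5 and KRT14 had 0 counts in every library, and TP63 had 2 counts in replicate 1 and none in the others. The basal genes that were on, CAV1, LAMB3 and ITGA6, lay at 3.49, 2.92 and 1.57 TPM. Of 25 immune genes none was on and 14 were off: PTPRC, the pan-leukocyte phosphatase CD45, had 0, 0 and 3 counts, and the highest immune gene, CD4, stayed at 0.993 TPM. Of 14 endothelial genes 2 were on, EGFL7 and ESAM, both near 2 TPM, and 9 were off. Of 20 club and urothelial genes 4 were on and 12 off, and the 12 off had 0 counts in every library. The highest of that list was GATA3, a zinc finger factor of urothelial and luminal breast cells, with 50.5, 40.8 and 23.3 CPM, a 2.16-fold range.

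Mesenchymal genes gave a mixed picture, with 7 of 27 on and 10 off, beside 59.7% and 22.8% of all nuclear protein-coding genes. TWIST1, a factor that drives epithelial-to-mesenchymal transition, was on at 34.9 TPM ± 11.1, and the matrix protein FN1 had 14.7, 13.7 and 10.6 TPM and LUM 12.3 TPM ± 2.12. The intermediate filament VIM was at 5.01 TPM ± 0.605, and the repressors ZEB1 and ZEB2 each had 2 counts in replicate 1 and none in the others. SNAI1, another repressor of epithelial genes, had 0.527 CPM in replicate 1 and 10.3 and 10.7 CPM in replicates 2 and 3. Its mean of 7.18 CPM lay under the limit set for assessing variability.

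Neuroendocrine genes were on in part. Of 30 such genes 15 (50%) were on and 6 (20%) off, beside 59.7% and 22.8% of all nuclear protein-coding genes. The median of the list was 1.32 TPM, under the 4.83 TPM of all nuclear protein-coding genes. PEG10, a retrotransposon-derived gene linked to neuroendocrine prostate cancer, was at 607 TPM ± 146 with 1441, 1599.6 and 1129 CPM, and ENO2, neuron-specific enolase, was at 123 TPM ± 5.23. SRRM4, the splicing factor of neural microexons, was at 55.4 TPM ± 12.9, the granule protein SCG3 at 55.4 TPM ± 4.20 and the synaptic vesicle protein SYP at 37.9 TPM ± 1.73. Transcription factors of the list were divided. ONECUT2 was on at 13.8 TPM ± 2.04, POU3F2 at 6.48 TPM ± 1.99, INSM1 at 6.17 TPM with 6.79, 8.69 and 2.19 CPM, and NKX2-1 at 1.73 TPM ± 0.413. NEUROD1 had 0 counts in every library and SOX2 lay at 0.573 TPM. CHGA, chromogranin A, reached 1.28 TPM ± 0.486 and NCAM1 had at most 3 counts in a library.

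Genes of organs other than the prostate were on in places. Of 44 markers of other lineages 12 were on and 17 off, beside 59.7% and 22.8% of all nuclear protein-coding genes. ALB, the serum albumin of hepatocytes, was the highest at 206 TPM ± 69.7, with 239.6, 314 and 171 CPM, whereas the other hepatocyte products of the list were low or off, with FGA, FGB and SERPINA1 at 0 counts in every library. VIL1, the villin of intestinal microvilli, was at 73.1 TPM ± 6.72 but shares 44.2% of its exonic bases with neighbours. GRIN1, a subunit of the NMDA glutamate receptor, was at 30.6 TPM ± 3.88 and the cardiac homeobox factor NKX2-5 had 8.38, 18.2 and 17.9 CPM. HBA1, alpha globin, was at 55.5 TPM ± 12.2, and it has a near-identical neighbour in HBA2, so its counts are uncertain. Among other genes of neurons SLC17A7, a vesicular glutamate transporter, was on at 8.57 TPM ± 0.609 and GAD1, which makes GABA, at 1.13 TPM ± 0.0730, whereas RBFOX3 had 0 counts in every library. Of the heart genes MYH7 had 0 counts and TNNT2 had 2, 1 and 0.

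Cancer-testis genes, which are silent in most adult tissues outside the germ line, ranged from high to absent. Of 21 genes 9 (42.9%) were on, 7 low and 5 (23.8%) off. Of all nuclear protein-coding genes 59.7% were on and 22.8% off, so the share off was near that of all genes. CTAG2 was at 398 TPM ± 23.4, MAGEA3 at 249 TPM ± 31.9, MAGEA4 at 221 TPM ± 24.0 and MAGEA1 at 158 TPM ± 13.5, while MAGEC1, SSX1 and SYCP1 had 0 counts in every library. Of the high members CTAG2, MAGEA4 and MAGEA1 were stable, with 255, 262 and 253 CPM for MAGEA4 and 91.7, 92.2 and 95.4 CPM for MAGEA1. SSX2 was variable, with 30.5, 21.4 and 58.6 CPM. Most of these genes have near-identical copies on the X chromosome, so the split of counts among family members is uncertain.

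Of 48 nuclear receptors 30 (62.5%) were on and 8 (16.7%) off, beside 59.7% and 22.8% of all nuclear protein-coding genes. ESRRA, an orphan receptor that drives mitochondrial genes, was at 163 TPM ± 14.7, with 167, 176 and 147 TPM, and NR2F6, another orphan receptor, at 129 TPM ± 11.6. Several hormone receptors were far lower. NR3C1, the glucocorticoid receptor, was at 6.56 TPM ± 2.28, NR3C2, the mineralocorticoid receptor, at 13.3 TPM ± 6.71, the vitamin D receptor VDR at 13.1 TPM ± 4.06, and PGR and ESR1 had at most 9 and 1 counts in a library. NR3C2 was 1 of 2 variable members, with 36.1, 38.5 and 14.2 CPM.

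Of 36 genes that make, move or clear androgens 18 (50%) were on and 10 (27.8%) off, beside the same 59.7% and 22.8%. CYP17A1, CYP11A1 and STAR, which begin steroid synthesis from cholesterol, had 0 counts in every library, and HSD3B1, which acts on adrenal precursors, had at most 1 count. AKR1C3, which reduces androstenedione to testosterone, was at 26.5 TPM ± 5.18. Of the 5-alpha reductases that make dihydrotestosterone SRD5A1 was at 17.6 TPM ± 2.51, SRD5A3 at 6.01 TPM ± 1.55 and SRD5A2, the form of the normal prostate, at 0 counts. UGT2B15, which conjugates androgens for clearance, was at 65.3 TPM ± 4.84, and its relative UGT2B17 at 3.90 TPM ± 1.24. These UGT2B genes resemble each other closely, which makes their split less certain. None of the 13 members assessed was variable, beside 3.65% of all assessed genes. Their median range on the log2 scale was 0.24, beside 0.29.

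Of 27 ETS factors 21 (77.8%) were on, beside 59.7% of all nuclear protein-coding genes. SPDEF led at 245 TPM ± 31.9, followed by the epithelial factor EHF at 69.9 TPM ± 21.0 and the repressor ERF at 62.3 TPM ± 4.26. ETS1 and FLI1 had 0 counts in every library, and ERG, the factor most often activated by gene fusion in prostate cancer, had 1, 9 and 0 counts. ETV4 and ETV1, which are also fusion partners, were at 25.2 TPM ± 1.72 and 11.8 TPM ± 2.86.

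Among 54 receptor tyrosine kinases 24 (44.4%) were on and 16 (29.6%) off, beside 59.7% and 22.8% of all nuclear protein-coding genes. The collagen receptor DDR1 was highest at 96.8 TPM ± 2.36, then FGFR3 at 87.7 TPM ± 19.2, EPHB4 at 63.8 TPM ± 1.29 and ERBB3 at 58.6 TPM ± 1.88. EGFR had 79.7, 83.6 and 82.7 CPM and differed little between libraries. MET, the receptor of hepatocyte growth factor, had 36.1, 81.9 and 109.7 CPM, a 3.04-fold range, and FGFR3 had 106, 142 and 202 CPM. For MET and FGFR3 replicate 1 was the lowest library and replicate 3 the highest. AXL and FGFR2 had 0 counts in every library.

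The cells carried the transcripts of a dividing population. All 40 S phase genes were on, with a median of 83.8 TPM, and so were 39 of 41 genes of G2 and mitosis, with a median of 74.4 TPM. Of all nuclear protein-coding genes 59.7% were on. The 2 members of these lists that were low were PRC1 and NUSAP1, which share most of their exonic bases with neighbours. PCNA, the replication clamp, was at 606 TPM ± 64.6, the helicase subunit MCM7 at 391 TPM ± 17.0, the topoisomerase TOP2A at 148 TPM ± 20.9 and the proliferation marker MKI67 at 115 TPM ± 20.8. Proliferation genes differed little between libraries: no member of either list was variable, beside 3.65% of all assessed genes. The median range was 0.18 on the log2 scale in both, beside 0.29. UBE2C, the ubiquitin-conjugating enzyme of mitotic exit, had 83.1, 83.7 and 84.0 CPM, and the checkpoint kinase BUB1B had 123, 123 and 121 CPM.

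Lists of metabolism and protein quality control were almost wholly on, beside 59.7% of all nuclear protein-coding genes. All 25 sterol synthesis genes were on, with FDFT1 (squalene synthase) at 273 TPM ± 46.9. Of 37 genes of the ATF4 stress response 36 were on at a median of 74.9 TPM. Their highest members after SLC7A5 were SHMT2, ATF4 and PSAT1, and ATF4 itself had 386, 299 and 225 CPM. All 26 secretory and proteostasis genes were on, led by CALR, HSP90AB1, HSPA8 and HSP90AA1, and the endoplasmic reticulum chaperone HSPA5 was at 705 TPM ± 40.8. Of 40 hypoxia and glycolysis genes 35 were on. The glycolytic enzymes TPI1, PKM and LDHA stood at 771, 262 and 243 TPM, whereas CA9, a hypoxia-induced carbonic anhydrase, had 0, 1 and 8 counts. ALDOA, the main muscle-type aldolase, read only 7.09 TPM, but 54.2% of its exonic bases are shared.

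The large housekeeping complexes were on with few exceptions, beside 59.7% of all nuclear protein-coding genes. Of 86 cytosolic ribosomal protein genes 84 were on (median 211 TPM), as were 76 of 78 mitochondrial ribosomal protein genes, all 76 nuclear-encoded subunits of the respiratory chain and 38 of 43 proteasome subunits, whose exceptions included the immune-type subunits PSMB8 and PSMB9. Of 33 subunits of Mediator, the complex that links enhancer-bound factors to RNA polymerase II, 32 were on at a median of 20.8 TPM. MED12, the subunit that the study went on to deplete, had 66.7, 75.2 and 72.6 CPM in these control libraries. CDK19, a kinase of the same module, was the highest Mediator gene at 60.6 TPM ± 10.7, and its paralog CDK8 was at 11.4 TPM. None of the 30 assessed Mediator subunits was variable, beside 3.65% of all assessed genes. Their median range was 0.25, beside 0.29.

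Interferon response genes were low for the most part. Of 38 that were found 16 (42.1%) were on and 9 (23.7%) off, beside 59.7% and 22.8% of all nuclear protein-coding genes, and their median was 1.11 TPM. ISG15, a ubiquitin-like modifier, was the highest at 286 TPM ± 45.6, and the next was TAP1, a peptide transporter, at 18.5 TPM. OAS1, which senses double-stranded RNA, had 4, 0 and 0 counts, IFIT1 had 1, 1 and 2, CXCL10 had none, and MX1 stayed at 0.711 TPM.

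Of 29 lncRNAs named for prostate cancer or growth 16 (55.2%) were on and 5 (17.2%) off, beside 13.1% and 58.1% of all lncRNA genes. NORAD, a cytoplasmic RNA that binds Pumilio proteins, was the highest at 224 TPM ± 24.1, with 408, 432 and 408 CPM. MALAT1, a nuclear speckle RNA, was next at 191 TPM ± 69.6, with 489, 546 and 1091 CPM, and 83.7% of its annotated bases overlap other entries. PCAT14 was at 16.9 TPM ± 1.96, whereas PCA3, whose urine test is used in prostate cancer, had 7, 3 and 4 counts. Of 39 HOX genes 26 (66.7%) were on and 8 (20.5%) off, beside 59.7% and 22.8% of all nuclear protein-coding genes. The clusters were not alike: HOXA, HOXB and HOXC each had members over 10 TPM, whereas no HOXD gene passed 1 TPM and HOXD1, HOXD3, HOXD4, HOXD10, HOXD11 and HOXD12 had 0 counts.

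Most genes differed little among the 3 libraries. The median range of the 10567 assessed genes on the log2 scale was 0.29, or 1.22-fold, and the 386 variable genes were 294 protein-coding genes, 55 lncRNAs and 37 others. Counting error was the smaller part of it: at a mean of 10 CPM it amounted to an SD of 0.112 on the log2 scale, and the median variance of a gene over the libraries was 9.35 times that of counting alone. The common dispersion (edgeR, 16357 genes) was 0.0351, a biological coefficient of variation of 0.187. None of the libraries was a copy of another, with a chi-square per degree of freedom of 10.8 between replicates 1 and 2, 40.7 between 1 and 3 and 24.3 between 2 and 3. The number of variable genes rested on replicate 3 and replicate 1. It was 63 without replicate 3, 155 without replicate 1 and 334 without replicate 2, and stable genes then numbered 6372, 3913 and 3873, since 2 libraries span less than 3.

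**Figure D3:**
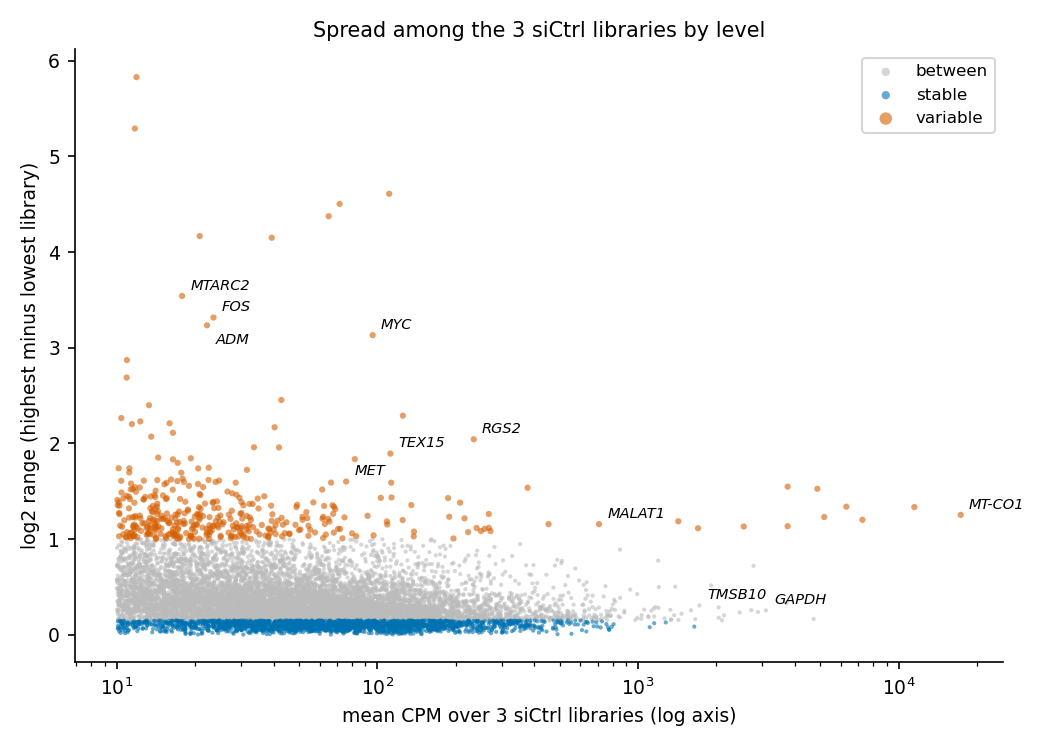
Range of log2 CPM between the lowest and highest siCtrl library against mean CPM (log axis) for genes with a mean of at least 10 CPM, drawn by their class. Most genes lie under a range of 1, the variable genes (386) are most frequent between 10 and 30 CPM, and the mitochondrially encoded genes such as MT-CO1 form a group on the right at ranges over 1.

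The libraries did not contribute equally. Of the 386 variable genes 250 (2.37% of those assessed) were highest in replicate 3, 115 (1.09%) in replicate 1 and 21 (0.199%) in replicate 2, whereas all assessed genes divided almost evenly by highest library, with 3588, 3458 and 3521 in the same order. By lowest library they did not, with 5124 of the 10567 lowest in replicate 3, 3113 in replicate 1 and 2330 in replicate 2. Between replicates 1 and 3, 212 genes were at least 2-fold higher in replicate 3 and 100 in replicate 1. Between replicates 1 and 2 these numbers were 34 and 32. Replicate 3 also had the largest share of counts in mitochondrially encoded genes (4.43%, 6.31% and 10.0% in replicates 1, 2 and 3) and in lncRNAs (1.83%, 1.66% and 2.18%), and replicate 1 had far less nuclear ribosomal RNA (17.6, 334 and 379 CPM). The part of these shares in the variability of other genes was not tested. Variable genes made up 7.36% of genes between 10 and 30 CPM, 2.02% between 30 and 100 CPM, 1.26% between 100 and 300 CPM and 3.06% above 300 CPM, where they were 14 of 457.

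The largest ranges belonged to non-coding entries. A lncRNA without a symbol, ENSG00000236283 (chr2:164840661-165208261, plus strand), had 34.4 CPM in replicate 1 and 0.796 and 0.487 CPM in replicates 2 and 3. The next 6 were copies of the 5.8S ribosomal RNA and of the MIR3648 hairpin in the ribosomal DNA on chromosome 21. RNA5-8SN2 had 4.63, 103 and 108 CPM and MIR3648-1 had 4.80, 102 and 88.3 CPM, low in replicate 1 and alike in the others. These repeats are near-identical, so their counts are uncertain, and mature ribosomal RNA lacks the poly(A) tail by which these libraries were selected.

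Immediate-early genes, which growth factors and stress switch on within minutes, held many of the most variable protein-coding genes. Of 41 such genes 36 were on, beside 59.7% of all nuclear protein-coding genes. Of the 30 assessed 10 were variable, beside 3.65% of all assessed genes. FOS (chr14:75278826-75282230, plus strand), a subunit of the AP-1 factor, had 3.69, 37.8 and 29.0 CPM, a 9.96-fold range. FOSB, its relative, had 2.75, 9.18 and 20.9 CPM and JUNB 33.8, 81.7 and 86.5 CPM. In all of these replicate 1 was the lowest library, as it was in 19 of the 30 genes and in 3113 of all 10567. The same held for KLF10, ZFP36, SPRY2, NR4A1, CCN1 and CCN2 among the variable members. MYC, the growth-promoting factor, went the other way, with 214 CPM in replicate 1 and 24.3 CPM in replicate 3, an 8.77-fold range, and replicate 2 between them. Not every immediate-early gene followed: EGR1 had 24.2, 18.9 and 25.8 CPM and JUN 58.9, 60.7 and 47.8 CPM. ATF3 was also lowest in replicate 1, with 30.4, 42.0 and 40.9 CPM, but was not variable. Without replicate 1 only 2 of the 30 remained variable, and without replicate 2 or replicate 3 the number was 8 in either case.

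Other protein-coding genes shared the low level in replicate 1. ADM, which encodes the vasodilator peptide adrenomedullin, had 3.46, 33.5 and 29.6 CPM and was the only variable member among 33 assessed genes of hypoxia and glycolysis. GADD45B, a stress-induced partner of MAP kinase kinases, had 11.4, 62.8 and 54.4 CPM, and the receptor GPR3 had 3.75, 15.9 and 20.3 CPM. MTARC2, a mitochondrial amidoxime-reducing enzyme, showed another pattern, with 4.22 and 3.79 CPM in replicates 1 and 2 and 45.5 CPM in replicate 3. RGS2, a regulator of G protein signaling, had 421, 179.9 and 102 CPM and the factor KLF9 62.9, 44.3 and 13.9 CPM, highest in replicate 1 and lowest in replicate 3 as for MYC. TEX15, a germ-line gene, had 139, 156 and 41.9 CPM. Zinc finger genes, a group picked after the values had been seen, were frequent among those high in replicate 1: of 250 assessed genes named ZNF 23 (9.2%) were variable, 20 of them highest in replicate 1, beside 3.65% and 1.09% of all assessed genes.

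**Figure D4:**
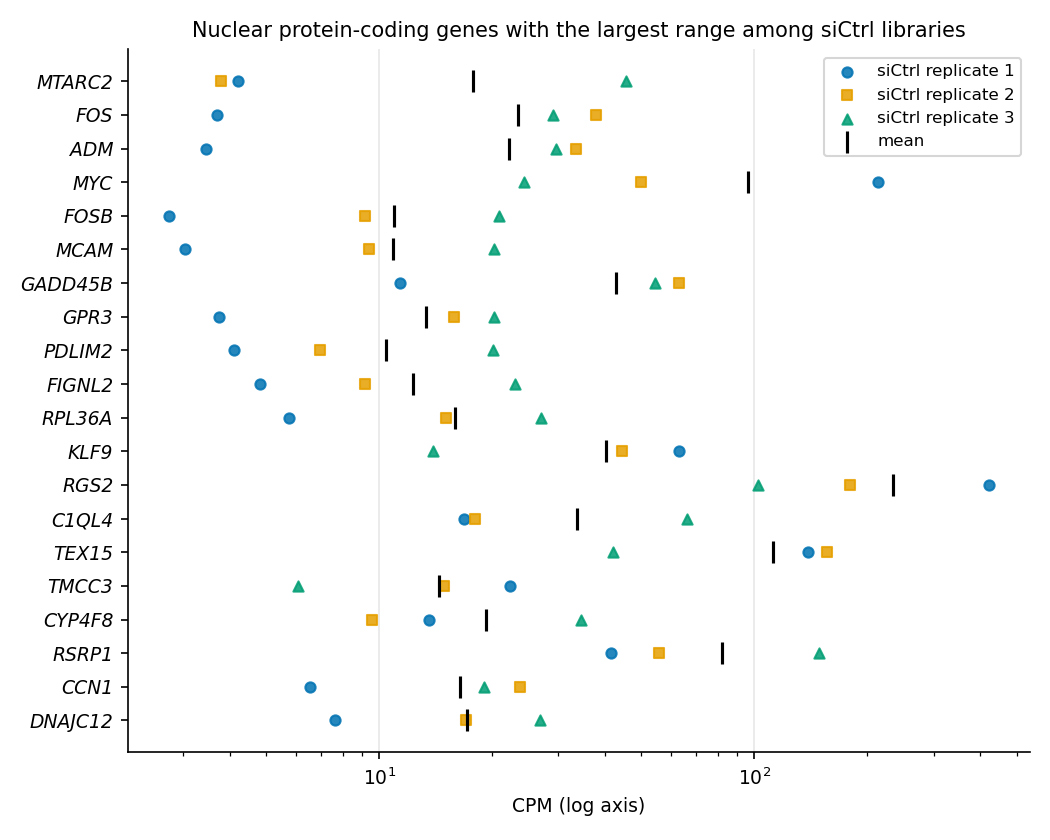
CPM (log axis) in each siCtrl library of the 20 nuclear protein-coding genes with the largest range, with the mean as a vertical tick. Replicate 1 is lowest for FOS, ADM, FOSB and GADD45B and highest for MYC, RGS2 and KLF9, and replicate 3 stands alone above the others for MTARC2 and C1QL4.

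The 150 bases before the RefSeq start are shown for 4 of the variable genes and for BTF3L4, the gene with the smallest range, to show where the TATA sequence that many inducible genes carry lies. The 4 were chosen for holding it. Capitals mark TATAAA on the sense strand between 45 and 16 bases before the start (GRCh38.p14, all on the plus strand). The windows are chr14:75278678-75278827 for FOS, chr19:45467846-45467995 for FOSB, chr11:10304923-10305072 for ADM, chr19:2475977-2476126 for GADD45B and chr1:52056145-52056294 for BTF3L4.
FOS: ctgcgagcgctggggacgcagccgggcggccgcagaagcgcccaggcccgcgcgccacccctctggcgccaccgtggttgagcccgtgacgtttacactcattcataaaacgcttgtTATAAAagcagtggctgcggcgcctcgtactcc
FOSB: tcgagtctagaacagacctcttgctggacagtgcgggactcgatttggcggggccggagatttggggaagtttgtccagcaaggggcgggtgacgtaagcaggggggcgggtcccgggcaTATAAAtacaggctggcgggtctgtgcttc
ADM: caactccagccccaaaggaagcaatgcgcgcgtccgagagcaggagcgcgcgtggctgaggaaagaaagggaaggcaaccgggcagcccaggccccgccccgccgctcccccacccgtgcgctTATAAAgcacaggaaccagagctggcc
GADD45B: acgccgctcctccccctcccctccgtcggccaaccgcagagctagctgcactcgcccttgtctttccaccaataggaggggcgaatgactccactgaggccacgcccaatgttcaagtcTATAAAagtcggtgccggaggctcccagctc
BTF3L4: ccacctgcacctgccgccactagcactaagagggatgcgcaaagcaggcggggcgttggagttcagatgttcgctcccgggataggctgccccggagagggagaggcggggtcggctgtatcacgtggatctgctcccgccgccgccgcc

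RefSeq start windows of 300 bases (250 before and 50 after the start) were matched for 15279 nuclear protein-coding genes, many of which have several starts. TATAAA at 45 to 16 bases before the start, on the sense strand, was found in 3.12% of all 21508 windows. It was in 4.83% of the windows of variable genes, 1.21% of those of genes between the limits and 0.765% of those of stable genes, and in 6 of the 37 windows of immediate-early genes. By level it was in 1.56% of the windows of genes that were on and 7.56% of those off. GGGCGG on either strand, the core of the GC box, was in 66.9% of the windows of genes on and 28.6% of those off, and the median CpG content was 8.33 and 1.67 per 100 bases. These shares describe letters in the windows and no use of them by a factor.

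Mitochondrially encoded messenger RNAs had the largest median range of the lists described. Of 13 such genes 11 were variable, with a median range of 1.23 on the log2 scale. MT-CO1, a subunit of cytochrome oxidase, had 10929, 14925 and 26052 CPM, and 12 of the 13 were highest in replicate 3. MT-ND6, the only protein gene on the light strand of the mitochondrial genome, was the exception, with 182, 60.2 and 97.3 CPM and replicate 1 as its highest library. Nuclear-encoded subunits of the respiratory chain showed none of this: 0 of 74 were variable and their median range was 0.18. Without replicate 1 none of the 13 was variable, without replicate 3 there was 1 and without replicate 2 there were 10.

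Long non-coding RNAs were variable in 15.4% of 357 assessed genes, against 3.01% of 9777 nuclear protein-coding genes. MALAT1, SNHG1 (63.5, 105 and 172 CPM), GAS5 (69.2, 78.7 and 142 CPM) and FTX (23.6, 20.4 and 53.0 CPM) were the variable members of the named lncRNAs, and all were highest in replicate 3. Of 89 assessed antisense lncRNAs 11 (12.4%) were variable. All 11 were highest in replicate 3, as were 250 of all 386 variable genes. HOX genes also ranged widely, with 5 of 18 assessed members variable beside 3.65% of all assessed genes. HOXA9 had 6.03, 9.73 and 18.3 CPM, HOXA10 11.9, 19.7 and 28.2 CPM and HOXC9 8.84, 12.6 and 21.4 CPM. All 5 variable members were highest in replicate 3. So were 14 of the 18 assessed, beside 3588 of all 10567 assessed genes. Without replicate 1 and without replicate 3 only 1 of the 18 was variable, and without replicate 2 there were 4.

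The most even genes at 50 CPM or more differed by less than the error of counting. BTF3L4, a relative of the transcription factor BTF3, had 66.3, 66.3 and 66.2 CPM, TMED2, a cargo receptor of early secretory vesicles, 490.4, 490.4 and 492 CPM, and HNRNPC, a nuclear RNA-binding protein, 557, 553 and 556 CPM. Such closeness is in part the outcome of choosing the smallest of many ranges. Genes commonly used as references were even but not the most even. None of 23 was variable, 6 were stable and the median range was 0.22. PGK1 (323, 347 and 319 CPM) and B2M (107, 116 and 114 CPM) were among the stable ones. GAPDH and ACTB had ranges of 0.25 and 0.24. By list, the median range was lowest for the cancer-testis genes (0.17), the proteasome subunits (0.17), the respiratory chain and the cell cycle lists.

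**Figure D5:**
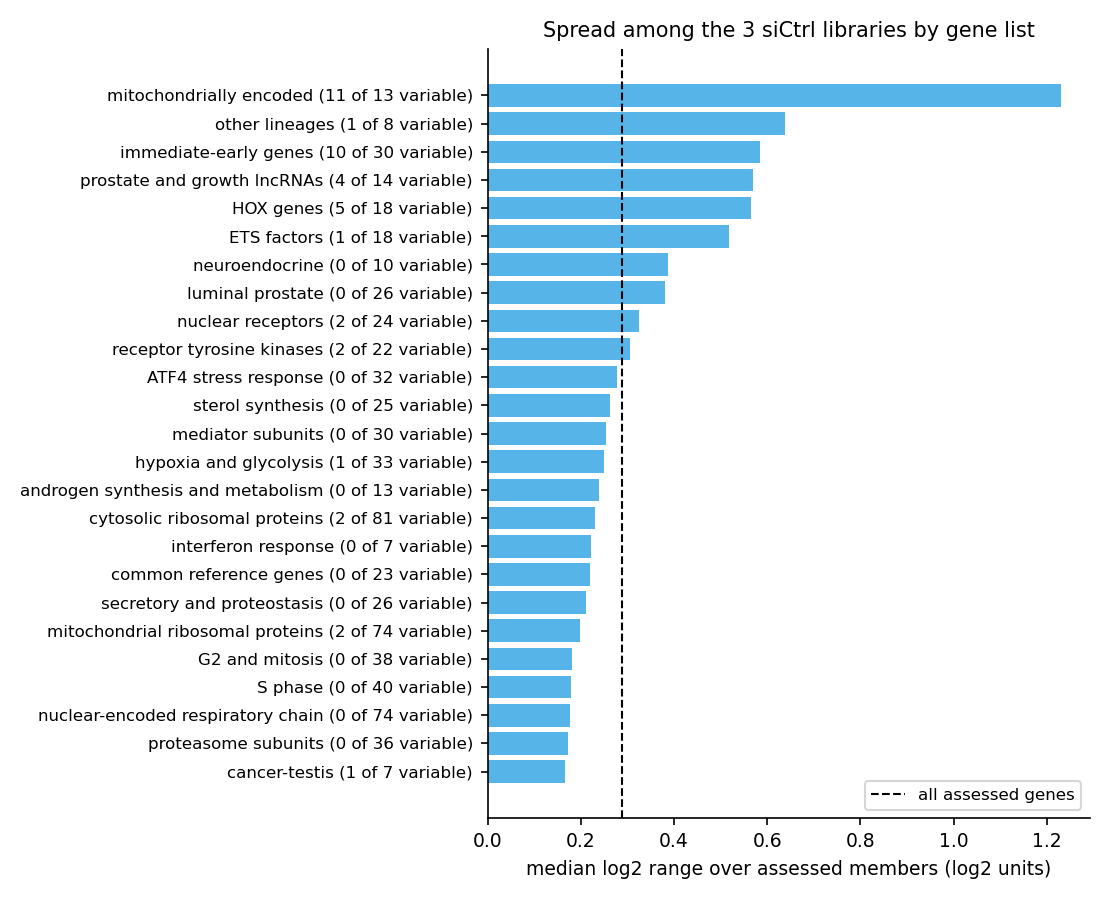
Median range of log2 CPM among the 3 siCtrl libraries over the assessed members of each list with at least 5 assessed, with the number of variable members, and a dashed line at the median of all assessed genes (0.29). Mitochondrially encoded (1.23), immediate-early (0.58), lncRNA and HOX lists lie to the right of the line, and cell cycle, proteasome and reference lists to the left.

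The limits that define the classes cut through a continuum. Just inside the limit for variable genes lay ANKRD12 with 46.7, 28.1 and 23.3 CPM and PKD1P3 with 13.8, 15.2 and 27.8 CPM. Just outside it lay TP53INP2 with 109.9, 118 and 59.2 CPM and TIGD5 with 29.1, 20.9 and 14.5 CPM. At the limit for stable genes CPLX2 (57.6, 64.0 and 60.4 CPM) lay just inside and SEH1L (93.6, 93.2 and 84.3 CPM) just outside. Ribosomal protein genes of the cytosol, although rarely variable (2 of 81), were lowest in replicate 1 in 74 of 81 cases beside 3113 of all 10567 assessed genes, with a median range of 0.23. The sum over the 81 genes was 22663.7, 24740.3 and 26163.5 CPM.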

How the data were processed

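The authors deposited whole, unscaled counts of reads for each gene, made from strand-specific poly(A) libraries with Rsubread on GRCh38 (p13, per the labels) and Gencode release 43 genes. The Rsubread version, the strand setting and the treatment of reads that match several places were not given in the sources used here. The authors also deposited log2 CPM values after a filter on low expression (17901 genes), which served only as an alternative scaling.

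The columns of the 3 siCtrl libraries were used, grouped by their labels, and those of the 3 siMED12 libraries were not analysed here. Genes were annotated with Gencode release 44, which matched 62639 of 62703. CPM were computed with edgeR 4.0.16 in R 4.3.3 (TMM scaling, prior count of 2 for log2 values) and TPM from the summed exon length per gene (Python 3.11.15, pandas 2.3.3). DESeq2 1.42.0 size factors were an alternative, as were other limits, lengths and filters and leaving out each library. The script for ranges was tested on simulated data. Promoter sequences came from RefSeq (GRCh38.p14).

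Named genes were the 20 nuclear protein-coding and 5 non-coding genes highest in TPM, the defining or highest members of 30 lists, the 10 largest ranges, the 10 smallest ranges at 50 CPM or more, and genes next to the limits. The members and lists were chosen with earlier results of these data known. The 20 protein-coding genes with the largest range, the 5 highest lncRNAs, the ZNF, SNHG and antisense groups, the lengths of canonical transcripts and the overlap of exons were added after the values had been seen. Some genes that these rules name are not reported here.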

Additional observations from a re-analysis of the deposited data

How the results depend on the processing

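No paired analysis was possible because a single group was described and no value came from a test. The calls of on and off held under all their alternatives within 1.5 times, from 11656 to 12661 genes on and from 3885 to 4886 off. The share of nuclear TPM in the 100 most abundant genes of any type, 28.5%, was 40.8% with mitochondrially encoded genes counted in, 12.0% as a share of counts and 17.2% over protein-coding genes alone. The 386 variable genes became 1846 when genes down to 1 CPM were assessed and 9351 when any gene with 1 count was, and ranged from 63 to 334 when each library was left out in turn. Stable genes, 2086 of those assessed, then ranged from 3873 to 6372. Other scalings (DESeq2 size factors, library size, TMM without mitochondrially encoded genes, the deposited log2 CPM) gave 369 to 396 variable genes. Of 161 alternatives for the median ranges of 27 lists 63 moved by more than the spread, 60 of them by leaving out a library, and of 450 alternatives for the levels of 75 named genes 58 did. At the depth of these libraries a count of 0 leaves a level of up to 0.184 CPM possible.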

Other observations

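The share of protein-coding genes that were on differed by chromosome. It was lowest on chromosome 21 (47.7%), X (50.2%) and 11 (50.6%) and highest on chromosomes 22 (66.7%) and 16 (66.5%), beside 59.7% of all nuclear protein-coding genes. Among lncRNAs chosen after the values had been seen, VPS9D1-AS1 had 144 TPM, and the unnamed ENSG00000290018 had 374, 339 and 295 TPM, above NORAD (242, 232 and 196 TPM) in every library. ENSG00000269968, all of whose exonic bases overlap another entry, had 336, 193 and 274 TPM, which overlaps the range of NORAD. It lies within GAPDH on the opposite strand. Its counts were 755, 459 and 730, beside 53836, 54496 and 45888 for GAPDH. Whether its reads came from GAPDH was not tested. Host genes of small nucleolar RNAs, whose spliced products are mostly degraded on ribosomes, had 3 variable members among 16 assessed. Among all assessed genes 3.65% were variable. The host genes were highest in replicate 3 in 14 of the 16, beside 3588 of all 10567 assessed genes. Sterol synthesis genes, none of which was variable, were lowest in replicate 3 in 19 of 25 cases, beside 5124 of all 10567, and the genes of the ATF4 response were highest in replicate 2 in 21 of 32, beside 3521 of all 10567.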
